A study of Mus musculus with 2 samples.

Results

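Lysine-specific demethylase 1 (LSD1) had different peaks near widely spaced annotated starts in 823 protein-coding genes of mouse primary brown adipocytes. LSD1 takes methyl groups off lysines of histone tails, using a flavin cofactor, and works inside complexes that repress transcription. The genes were selected from the GENCODE M21 annotation of the mm10 assembly. A gene qualified when at least 2 of its protein-coding transcript starts lay more than 5 kb apart and each had a different LSD1 peak overlapping the region within 1 kb of it. Where results below speak of a promoter, the region around an annotated start is meant, whether or not transcription begins there. Of 21853 protein-coding genes, 4959 (22.7%) had starts more than 5 kb apart, called separated starts in what follows, and the 823 genes are 16.6% of these (Wilson 95% interval 15.6 to 17.7%). A further 2628 genes had LSD1 at 1 of their separated starts only and form the comparison genes, and 1508 had no peak at any start. In all, 69.6% of genes with separated starts had at least 1 bound start.

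The data came from differentiated brown adipocytes of C57BL/6 N mice, the heat-producing fat cells, of control genotype and passaged 2 to 3 times. They had been differentiated for 10 days after induction with insulin (850 nM), dexamethasone (1 µM), rosiglitazone (1 µM), indomethacin (125 nM), T3 (1 nM) and isobutylmethylxanthine (500 µM), in medium with 20% serum. LSD1 was immunoprecipitated from chromatin in 1 library with a homemade antibody, next to 1 input library without antibody. The outcome is a single list of 59175 peaks, each with the authors' score. There is no replicate and no other condition, the depth is unknown, and every interval given here covers counting error only. Genes and starts are not independent replicates, so no p-values are given. A peak list does not measure transcription, so whether a bound start was in use was not tested, and the cell type could not be checked against expressed markers.

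Alternative promoters let 1 gene make transcripts with different first exons. When the first exon carries the start codon, the proteins differ at their amino terminus. When it does not, the same protein comes under separate transcriptional control. Many promoters lie in CpG islands, stretches of GC-rich DNA in which the CpG dinucleotide is not depleted, while many tissue-restricted or internal promoters lie in CpG-poor sequence. Here a start was called CpG-rich when the 1 kb around it had an observed over expected CpG ratio above 0.6 and more than 50% GC.

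The outermost bound starts of a gene, 1 upstream and 1 downstream in the direction of transcription, could lie in very different or in very similar sequence. The DNA just before both starts is shown for 3 genes with the largest difference in CpG ratio among the named genes, with CpG dinucleotides in capitals and each sequence written 5′ to 3′ on the strand of the gene. Ebf3 encodes an Ebf-family transcription factor, Arhgap21 a GTPase-activating protein and Acaca acetyl-CoA carboxylase 1, which makes malonyl-CoA for fatty acid synthesis.
Ebf3 upstream start, chr7:137314446-137314565, minus strand: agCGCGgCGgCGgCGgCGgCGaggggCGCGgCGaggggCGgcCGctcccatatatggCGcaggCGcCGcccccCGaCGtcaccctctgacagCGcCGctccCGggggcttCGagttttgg
Ebf3 downstream start, chr7:137267539-137267658, minus strand: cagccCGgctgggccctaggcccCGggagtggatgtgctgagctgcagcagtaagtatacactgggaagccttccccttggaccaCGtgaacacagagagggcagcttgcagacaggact
Arhgap21 upstream start, chr2:20968882-20969001, minus strand: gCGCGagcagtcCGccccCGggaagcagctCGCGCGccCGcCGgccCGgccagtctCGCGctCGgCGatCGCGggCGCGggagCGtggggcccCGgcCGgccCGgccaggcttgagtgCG
Arhgap21 downstream start, chr2:20943420-20943539, minus strand: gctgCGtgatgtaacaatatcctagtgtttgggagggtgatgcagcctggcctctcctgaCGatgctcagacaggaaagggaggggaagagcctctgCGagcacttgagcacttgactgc
Acaca upstream start, chr11:84129601-84129671, plus strand: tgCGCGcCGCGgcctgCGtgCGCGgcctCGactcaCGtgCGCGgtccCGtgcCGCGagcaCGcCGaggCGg
Acaca downstream start, chr11:84195318-84195437, plus strand: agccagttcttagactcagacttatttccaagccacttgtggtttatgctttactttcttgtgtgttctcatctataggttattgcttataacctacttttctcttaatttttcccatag
The upstream windows held 21 CpG dinucleotides at Ebf3, 23 at Arhgap21 and 17 at Acaca, where the window was shortened to 71 bases to stay clear of annotated untranslated sequence. The downstream windows held 3, 3 and 0. The CpG-rich side had the higher score, with 912 upstream against 167 downstream at Ebf3, 1987 against 429 at Arhgap21 and 225 against 172 at Acaca. The downstream start of Acaca coincided with the first base of a later exon of the gene, and the window before it lay outside the peak, as it did at the downstream starts of Agap1 and Zmynd8 below.

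The next 3 genes had the smallest difference. Agap1, for an Arf GTPase-activating protein, had both starts in CpG-rich DNA. Macf1, for a giant linker of microtubules and actin, and Zmynd8, for a chromatin reader found with corepressor complexes, had both in CpG-poor DNA.
Agap1 upstream start, chr1:89454686-89454805, plus strand: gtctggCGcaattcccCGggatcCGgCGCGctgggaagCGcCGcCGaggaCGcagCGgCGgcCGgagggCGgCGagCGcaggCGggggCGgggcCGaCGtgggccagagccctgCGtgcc
Agap1 downstream start, chr1:89580116-89580235, plus strand: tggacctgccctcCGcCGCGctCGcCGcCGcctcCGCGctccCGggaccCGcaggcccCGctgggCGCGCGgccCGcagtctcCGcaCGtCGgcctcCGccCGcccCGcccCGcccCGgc
Macf1 upstream start, chr4:123684361-123684480, minus strand: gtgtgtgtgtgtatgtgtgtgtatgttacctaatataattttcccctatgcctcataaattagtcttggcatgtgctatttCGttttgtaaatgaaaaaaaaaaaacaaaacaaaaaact
Macf1 downstream start, chr4:123369932-123370051, minus strand: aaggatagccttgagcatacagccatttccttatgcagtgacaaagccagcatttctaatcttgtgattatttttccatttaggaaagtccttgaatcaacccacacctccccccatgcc
Zmynd8 upstream start, chr2:165884875-165884994, minus strand: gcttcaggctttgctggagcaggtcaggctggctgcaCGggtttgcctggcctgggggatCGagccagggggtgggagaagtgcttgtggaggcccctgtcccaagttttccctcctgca
Zmynd8 downstream start, chr2:165858174-165858293, minus strand: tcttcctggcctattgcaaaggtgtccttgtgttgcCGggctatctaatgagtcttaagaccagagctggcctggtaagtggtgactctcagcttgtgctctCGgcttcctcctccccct
The Agap1 windows held 20 and 23 CpG dinucleotides and both contained the GC box GGGCGG on either strand. The peaks there scored 829 and 1271. The Macf1 windows held 1 and 0 and the Zmynd8 windows 2 and 2, without a GC box, and the scores were 93.6 and 156 at Macf1 and 112 and 112 at Zmynd8. The last 4 scores are close to the median of 111 over the whole list, whereas both Agap1 scores are well above it.

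Most of the 823 genes had LSD1 at 2 separated starts (732 genes, 88.9%). A count from the 5′ end, taking only starts more than 5 kb from the last one counted and with a peak of their own, gave 3 bound starts in 77 genes, 4 in 12 and 5 in 2. The 2 genes with 5 were Abr and Macf1. Every separated start was bound in 461 genes (56%). The outermost bound starts were a median of 26.7 kb apart (quartiles 11.3 and 67.9 kb). The distance was 5 to 10 kb in 175 genes, 10 to 50 kb in 382, 50 to 100 kb in 133 and more than 100 kb in another 133. Between the outermost bound starts, and clear of the regions around them, lay a median of 1 further LSD1 peak, and 252 genes (30.6%) had none.

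Abr, encoding a regulator of small GTPases (chromosome 11, 76416734–76622314, minus strand), had separately bound starts at 0, 8.92, 44.6, 50.8 and 126.9 kb from the first. Their peaks scored 847, 77.1, 218, 103 and 115. The first of these 5 scored far above the others. Macf1 (chromosome 4, 123349633–123684360, minus strand) had separately bound starts at 0, 19.6, 156.7, 272.1 and 314.4 kb, with scores of 93.6, 538, 218, 212 and 156. Here the start at 19.6 kb stood out and the outermost starts were the lowest.

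Plec encodes plectin, a cytoskeletal linker known for its many alternative first exons (chromosome 15, 76170974–76232574, minus strand). Its 4 separately bound starts scored 676, 546, 1009 and 199. The peak of 1009, at 76197699–76200531, was 2833 bp wide and lay at 4 starts between 32 and 34.4 kb from the first, with CpG ratios of 0.15, 0.31, 0.30 and 0.54. Dst, for the linker dystonin, of the same family as plectin, had 4 with scores of 1148, 76.6, 442 and 118 over 328.4 kb. Tns1, for the focal adhesion protein tensin 1, had 4 with scores of 434, 75.8, 171 and 473 over 161.4 kb. At Dst the first start carried the highest score, whereas at Tns1 the outermost starts were nearly equal.

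Mast3, for a serine/threonine kinase associated with microtubules (chromosome 8, 70778117–70805054, minus strand), had 4 separately bound starts within 21.6 kb, with scores of 302, 1144, 1075 and 86.0. Its middle starts thus had the high scores. The peak at 70796129–70798705 lay at a start with a CpG ratio of 0.73. The peak at 70791689–70792939 covered 3 starts with ratios of 0.69 to 0.71, among them that of the principal isoform, and reached within 1 kb of a further start with a ratio of 0.13. Tcf4, for a basic helix-loop-helix transcription factor, had 44 annotated starts, the most of any of the 823 genes, of which 4 separately bound ones scored 299, 119, 383 and 98.2. Arhgef2, for a guanine nucleotide exchange factor of small GTPases, had 4 with scores of 159, 360, 228 and 87.3 within 21.7 kb. The highest of these scores, 383 at Tcf4 and 360 at Arhgef2, lay below those of Mast3 and Plec. The last of the bound starts of Macf1, Plec and Mast3 belonged to transcripts annotated with an unfound 5′ end. The first start of Dst also lay within 1 kb of a start of Bend6.

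**Figure D1:**
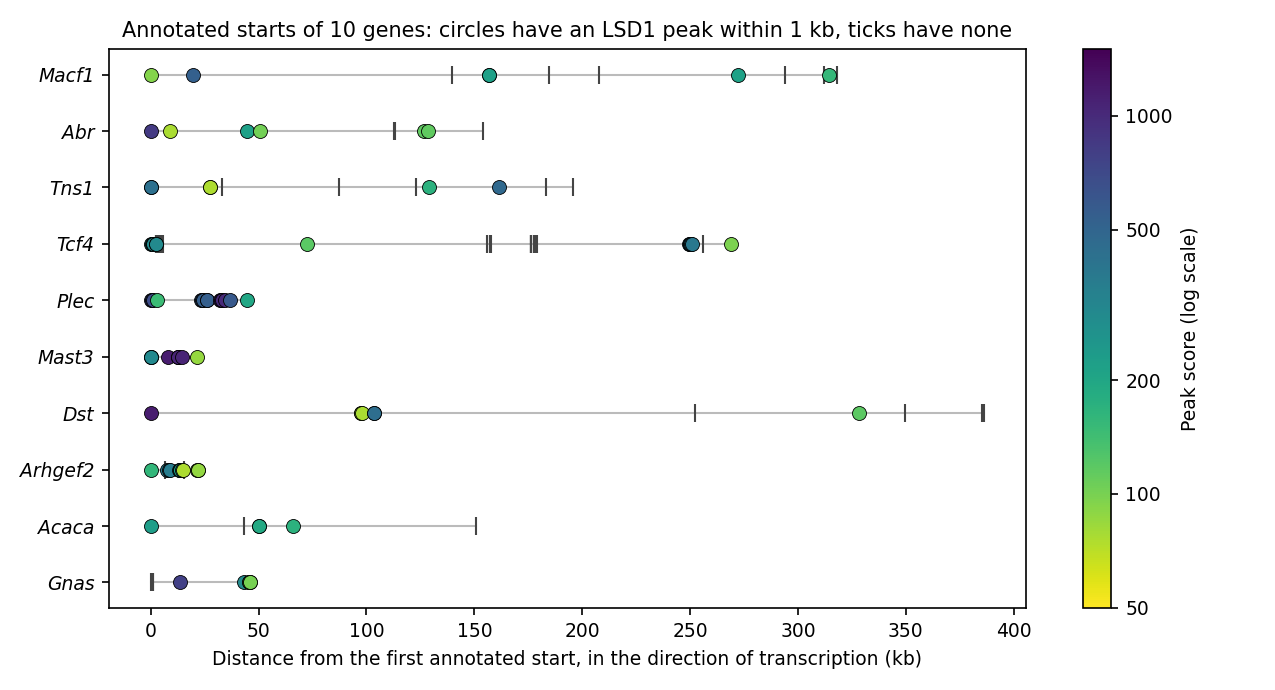
Annotated protein-coding starts of the 8 genes with the most separately bound starts, and of Acaca and Gnas, along the gene in kb from the first annotated start. Circles mark starts with an LSD1 peak within 1 kb, coloured by the score of the highest such peak on a log scale, and vertical ticks mark starts without one. Macf1 and Abr have 5 separately bound starts. The highest score of Plec (1009) and that of Mast3 (1144) lie inside the gene, although the first Plec start also scores 676.

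At most genes 1 of the outermost starts carried a much higher score than the other. The higher score of the pair had a median of 413 (quartiles 229 and 684) and the lower a median of 114 (quartiles 87.3 and 203), near the list's median. The median ratio of higher to lower was 2.57, and it exceeded 5 in 203 genes (24.7%). The upstream start had the higher score in 557 of 823 genes (67.7%, 64.4 to 70.8%), with a median score of 301 upstream and 143 downstream. Peaks were also wider upstream, with a median of 1027 bp against 711 bp. Across genes the log10 scores of the pair were almost unrelated (Pearson r = -0.089, n = 823 genes of 1 library). The comparison genes had a median of 307 at their highest-scoring bound start. All these scores come from the peaks that chose the genes and are a description only. Their scale is unstated, so a ratio of scores need not be a ratio of occupancy.

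Both outermost scores were at least the median of the list in 432 genes (52.5%). The pair score, the higher value of the lower score over all qualifying pairs of a gene, was greatest at Mast3 (1075). Banp, for a nuclear matrix and CpG-binding protein, had 2852 and 955 at starts 41.9 kb apart. The outermost start under the upstream peak had a CpG ratio of 0.35, but the same peak covered 5 further starts with ratios of 0.96 to 0.98, among them that of the principal isoform. The ratio at the downstream start was 0.33. The transcripts at the downstream Banp start are annotated with an unfound 5′ end, so that position need not be a transcription start.

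Fkbp5 encodes an immunophilin cochaperone of the glucocorticoid receptor and is a well-known glucocorticoid-induced gene, and the differentiation mixture contained dexamethasone. There was no condition without dexamethasone, so whether the Fkbp5 peaks depend on it was not tested. The outermost bound starts of Fkbp5 (chromosome 17, 28399094–28517527, minus strand) scored 1161 at 28517429–28520828 and 949 at 28484517–28486774. The peak at the upstream start was 3400 bp wide in CpG-poor DNA (ratio 0.33), while the downstream start, 31.4 kb away, was CpG-rich (ratio 1.03). Both starts served principal isoforms and shared a start codon. Among the other genes of highest pair score, Agap1 has been shown above. Epc1, for an Enhancer of polycomb protein of the NuA4 acetyltransferase complex, had 809 and 877. Specc1, for a cytoskeletal coiled-coil protein, had 762 and 790. Celsr3, for a cadherin of the planar polarity pathway, had 1263 and 747 at starts 5.42 kb apart and a further bound start at 16.9 kb (110.2), where the 5′ end is unfound.

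**Figure D2:**
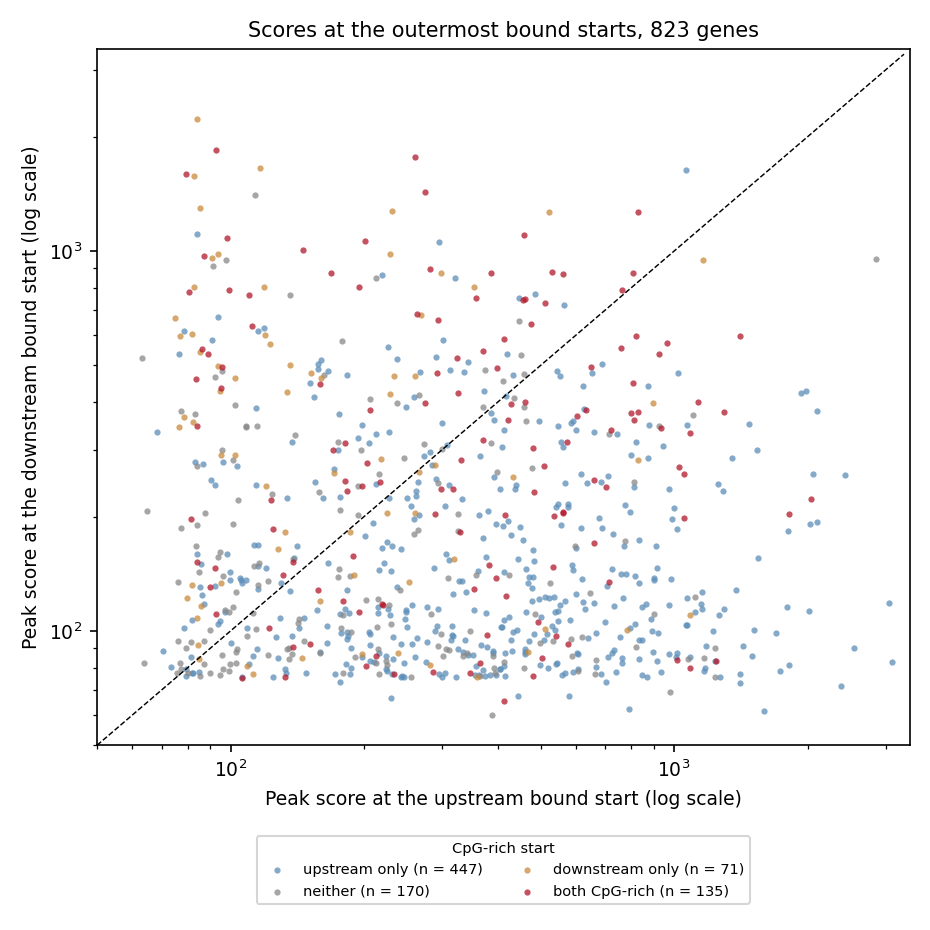
Peak score at the upstream against the downstream outermost bound start of each of the 823 genes, both on log scales, coloured by which of the starts was CpG-rich. The dashed line marks equal scores. More points lie below the line (557 genes with the higher score upstream), and genes with a CpG-rich downstream start only lie mostly above it.

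The greatest distances between outermost bound starts were found in Fgfr2, Anks1b and Auts2. Fgfr2, encoding a fibroblast growth factor receptor, had 358 and 751 at starts 2857 kb apart. The upstream of these lay within 1 kb of a start of Ctbp2, whose product is an LSD1-associated corepressor, and the same peak (chromosome 7, 133123550–133124837) was counted for Ctbp2 as well. Anks1b, for an ankyrin repeat protein, had 582 and 107 at starts 1022 kb apart. Auts2, for a chromatin-associated protein linked to Polycomb complexes, had 661 and 170 at starts 1003 kb apart. Near the 5 kb threshold, the members with the closest outermost bound starts were Nfia (5100 bp, scores 1088 and 110), Ppcdc (5100 bp, 458 and 389) and Grn (5101 bp, 299 and 301). The 5′ end is unfound at the downstream starts of Ppcdc and Grn. Just below it, and so not counted, were Matk (4983 bp, 143 and 99.7), Ptov1 (4953 bp, 302 and 76.6) and Emp1 (4948 bp, 113 and 109).

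The number of separated starts went with the share of genes that had several bound. That share was 11.6% of 3694 genes with 2 separated starts, 25.3% of 845 with 3, 38.4% of 255 with 4, 38.7% of 93 with 5 and 65.3% of 72 with 6 or more. The 823 genes were also longer, with a median span of 69.3 kb and 5 annotated starts, against 52.6 kb and 4 starts for the comparison genes and 35.2 kb and 3 starts for genes without a peak at a start. More starts give more places for a peak, so these shares do not compare like with like.

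The number of CpG-rich starts also went with several bound starts. Of 224 genes with 2 separated CpG-rich starts, 169 had several bound (75.4%, 69.4 to 80.6%), against 545 of 2983 genes with 1 (18.3%, 16.9 to 19.7%) and 102 of 1744 with none (5.85%). The difference between 2 and 1 was 57.2 percentage points (Newcombe 95% interval 51.0 to 62.5). It was also present among genes with the same number of separated starts. With exactly 2 separated starts, 74.3% of 113 genes with both CpG-rich had both bound, against 13.3% of 2134 genes with 1 CpG-rich start, a difference of 61.1 points (52.2 to 68.4). With 3 separated starts the difference between 2 or more and 1 CpG-rich start was 48.1 points (34.9 to 58.3), and with 4 or more it was 38.6 points (25.6 to 48.4).

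**Figure D3:**
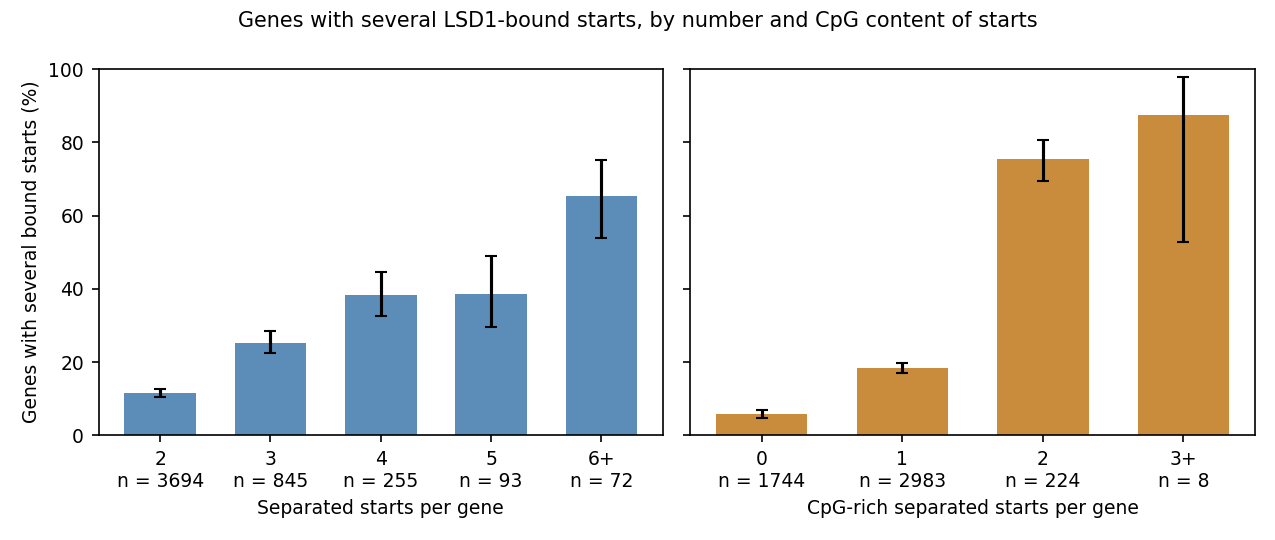
Share of genes with several LSD1-bound starts, in percent, by the number of separated starts (left) and by the number of separated starts that were CpG-rich (right). Bars show the share, lines the Wilson 95% interval, and n the genes in each class. The share is 18.3% with 1 CpG-rich separated start and 75.4% with 2.

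Most upstream bound starts were CpG-rich and most downstream ones were not. Of the 823 upstream starts 582 were CpG-rich (70.7%), slightly fewer than the 74.5% of bound starts in comparison genes, with a difference of -3.83 points (-7.43 to -0.37). Of the downstream starts 206 were CpG-rich (25%, 22.2 to 28.1%), 45.7 points fewer than upstream (41.3 to 49.8). That interval treats the 2 starts of a gene as independent, although they are paired. The downstream starts still differed from the unbound starts of the comparison genes, of which 55 of 2605 (2.11%) were CpG-rich, a difference of 22.9 points (20 to 26). The unbound start taken was the one farthest from the bound ones, and only the 2605 comparison genes with an unbound start more than 5 kb from a bound one are in this count. The outermost start is not always the one under the middle of its peak. With the start nearest to that middle, a choice made after seeing the data, 73.3% of upstream and 27.3% of downstream starts were CpG-rich, and the excess of downstream over unbound starts was 25.2 points (22.2 to 28.4). Median CpG ratios at the outermost starts were 0.74 upstream, 0.35 downstream, 0.75 at bound and 0.24 at unbound starts of comparison genes.

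Both outermost bound starts were CpG-rich in 135 genes, the upstream alone in 447, the downstream alone in 71 and neither in 170. Where both were CpG-rich the median scores were 358 upstream and 303 downstream. With the upstream alone CpG-rich they were 391 and 123, and with the downstream alone 136 and 291. The higher score thus lay on the CpG-rich side in most genes that had 1. The upstream score was the higher in 79.9% of the 447 genes (75.9 to 83.3%) and in 35.2% of the 71 (25.1 to 46.8%). Where both or neither were CpG-rich it was the higher in 55.6% (47.1 to 63.7%) and 58.8% (51.3 to 65.9%).

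**Figure D4:**
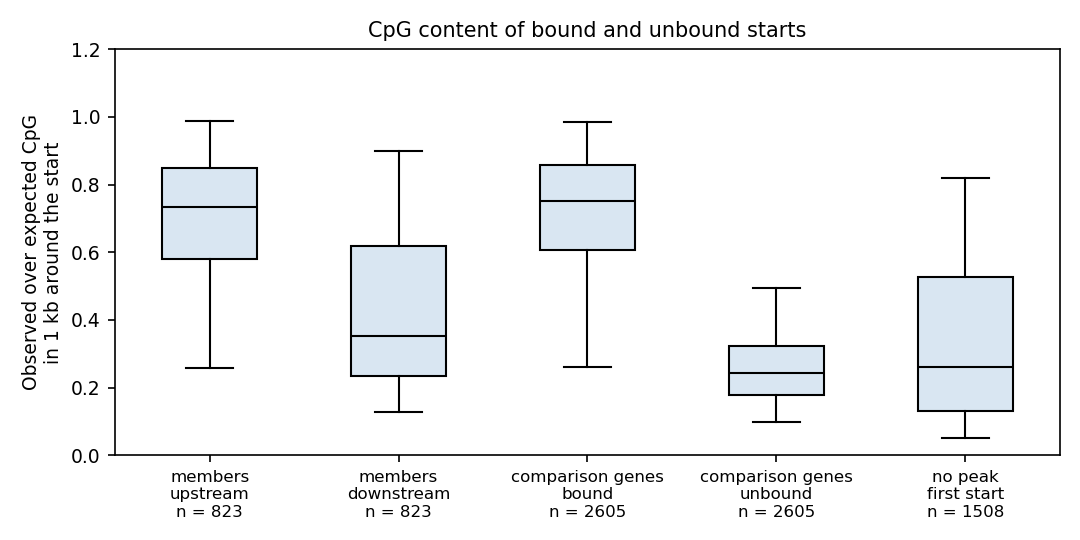
Observed over expected CpG ratio in the 1 kb around starts, for the upstream and downstream outermost bound starts of the 823 genes (members), the bound and unbound starts of the comparison genes, and the first start of genes without a peak at a start. Boxes span the quartiles with the median as a line, and whiskers reach the 5th and 95th percentiles. The downstream bound starts (median 0.35) lie between the upstream bound starts (0.74) and the unbound starts (0.24).

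Over all genes with separated starts, and counting each separated start once from the 5′ end, the later CpG-rich starts were bound nearly as often as the first ones. A peak was present at 2270 of 2612 CpG-rich first starts (86.9%) and at 460 of 556 CpG-rich later starts (82.7%, 79.4 to 85.6%). CpG-poor first starts were bound in 28.5% of 2347 cases. Of 6375 CpG-poor later starts 866 were bound (13.6%, 12.8 to 14.4%). As a background inside the same genes, 9.31% of 6560 CpG-poor midpoints between neighbouring separated starts, all more than 2 kb from any start, had a peak within 1 kb. CpG-poor later starts exceeded these midpoints by 4.27 points (3.17 to 5.37). The median score was 318 at bound CpG-rich later starts, 125 at bound CpG-poor later starts and 108 at peaks by midpoints. Of the 823 downstream starts 617 were CpG-poor and so of the class bound less often, at 13.6% against 9.31% at the midpoints. Much of the occupancy in this class is thus matched by the background inside genes. Whether the peak at any 1 of these 617 goes with its start was not tested.

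GC boxes, the GGGCGG letters bound by Sp1-family factors, followed the same order. In windows from 250 bases before to 50 after the start, and counting either strand, GGGCGG occurred at 65% of upstream and 35% of downstream bound starts, against 43.1% of all 54361 protein-coding starts. It occurred at 9.48% of the unbound starts of comparison genes, 25.5 points below the downstream bound starts (22.1 to 29). Many of these unbound starts had an unfound 5′ end, as given below, and need not be places where transcription begins. No motif difference is given here without them. Within CpG-poor starts alone it was present at 20.7% of the 617 downstream bound and 8.20% of the 2550 unbound starts. TATAAA, the TATA box, was found at 6.08% of upstream and 8.14% of downstream bound starts, against 16.7% of unbound starts and 11.3% of all starts. TGANTCA, the AP-1 site, was found at 9.84% of downstream bound starts and 9.06% of unbound starts, a difference of 0.78 points whose interval includes 0 (-1.40 to 3.24). It was at 5.22% of upstream bound starts and at 6.57% of all starts. Within CpG-poor starts alone the AP-1 difference was 2.78 points (0.16 to 5.77), from 12% of 617 and 9.22% of 2550 starts. The cAMP response element TGACGTCA was present at 1.09% of downstream bound, 0.31% of unbound and 2.06% of all starts. For CCAAT the corresponding shares were 30.3% and 33.6% (difference -3.37 points, -6.93 to 0.31), and 35.9% of all starts held it. CCGGAAGT, the ETS site, was at 1.82% and 0.69% (4.68% of all starts), and CACGTG, the E-box, at 6.93% and 4.03% (7.44% of all starts). None of these motifs contains another. Each match is exact letters in the window and does not show that a factor binds.

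The annotation gave the bound pair different start codons in most genes where both were known. Start codons were annotated on both sides in 659 genes, and in 380 of them (57.7%, 53.9 to 61.4%) no transcript beginning within 1 kb of the upstream start shared its start codon with one beginning at the downstream start. Between the bound and unbound starts of the comparison genes this was so in 49.5% of 1225 genes, 8.19 points lower (3.47 to 12.8). It could not be determined in 164 of the 823 genes and in 1380 comparison genes. Fgfr2, Anks1b, Agap1, Arhgef7 and Ebf3 are examples with different start codons, and Fkbp5, Hdac7 and Esrrg with a shared one. The downstream peak's midpoint lay in an intron of the gene in 590 cases (71.7%), in an untranslated exon in 149 and in a coding exon in 82. The upstream midpoint lay outside the transcripts of the gene in 313 cases (38%).

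The bound start that serves the principal isoform, as APPRIS tags in the annotation give it, usually had the higher score. A principal isoform began at the upstream start alone in 435 genes, at the downstream start alone in 191, at both in 107 and at neither in 90. In the 626 genes with it at 1 of the outermost starts, that start had the higher score in 409 (65.3%, 61.5 to 69.0%), with a median of 305 against 147 at the other. The principal start was CpG-rich in 71.9% and the other in 26.7%. The order depended on position. With the principal start upstream its score was the higher in 74.5% of 435 genes, and with it downstream in 44.5% of 191 (37.6 to 51.6%).

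How firmly the annotation places a start also differed with occupancy. Transcripts tagged with an unfound 5′ end accounted for 161 of 1646 outermost bound starts (9.78%), all but 3 of them downstream, and for 1325 of 2605 unbound starts of the comparison genes (50.9%), 41.1 points more (38.6 to 43.4). Such positions need not be places where transcription begins. The 9.78% pools upstream with downstream starts, so the difference of 41.1 points mixes position with occupancy. Among later separated starts, 26.2% of 4354 with a found 5′ end were bound, against 7.22% of 2577 without. Starts at the first base of a later exon made up 3.52% of downstream bound starts. With both kinds left out, 649 of the 823 genes remained, with a median score of 300.1 upstream and 167 downstream and 30.5% of downstream starts CpG-rich. A protein-coding start of another gene lay within 1 kb of the upstream bound start in 154 genes (18.7%) and of the downstream one in 21 (2.55%), so for these a peak may belong to either gene. The corresponding shares in the comparison genes were 15.2% at the bound and 1.11% at the unbound start.

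The listed transcription factors of the adipocyte lineage often had LSD1 at several promoters. This list and those below were chosen with earlier results of these data known, so their shares describe the listed genes only. Of 36 such genes 23 had separated starts, and 17 of these had several bound (73.9%, 53.5 to 87.5%), against 16.6% of all genes with separated starts. Listed genes also had more separated starts, a median of 3 against 2. Among those with 3 or more, 12 of 13 had several bound, against 395 of 1265 (31.2%) over all genes. At least 2 separated CpG-rich starts were present in 4 of the 23, against 232 of all 4959 genes with separated starts. Ebf3, shown above, had 912 at its CpG-rich start and 167 at the start 46.9 kb downstream. Nfia, for a nuclear factor I protein that acts early in the brown programme, had 1088 and 110 at starts 5.10 kb apart, the downstream one within 1 kb of a start of E130114P18Rik. Nfic, of the same family, had 113 and 148 at the outermost bound starts and, between them, 799.8 at a CpG-rich start and 92.4 at the start of the principal isoform. The 148 was at an unfound 5′ end.

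In several of these factors 1 promoter scored far above the other. Runx1, for a Runt-domain factor, had 116 upstream and 1656 downstream, at a distance of 130.7 kb. Zfp423, for a zinc finger factor of preadipocytes, had 1272 and 75.8, and Runx1t1, for a corepressor that restrains adipogenesis, had 1406 and 73.1. Others were more even. Foxn3 had 531 and 883, Foxp1 had 603 and 369 at its outermost starts, Rora, for a nuclear receptor tied to the circadian clock, had 217 and 247 over 635.9 kb, and Nr2f2, for COUP-TFII, had 226 and 205. The median pair score of the 17 was 148 (range 73.1 to 531), against 120.1 over the 823 genes. Nfib and Tcf7l2 had a bound start (180.1 and 131) and an unbound one 199.98 and 156.7 kb away, with CpG ratios of 0.84 and 0.88 at the bound and 0.24 and 0.22 at the unbound start.

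Adipocyte metabolism genes known for alternative promoters had LSD1 at 1 promoter only in 12 of 17 genes with separated starts, against 53% of all genes with separated starts. With only 17 genes and no interval for this share, that difference was not tested. Of the 30 metabolism genes listed 17 had separated starts, and 4 had several bound (23.5%, 9.56 to 47.3%), 12 had 1 and 1 had none. The interval includes the 16.6% over all genes. Among those with 3 or more separated starts it was 2 of 9, against 31.2% of all such genes. Acaca (chromosome 11, 84129672–84401651) had 3 separately bound starts with scores of 225, 192 and 172 at 0, 50.2 and 65.8 kb. A start of a principal isoform at 43.45 kb and another start at 150.8 kb had no peak. The upstream peak, at 84129258–84130261, also lay within 1 kb of a start of the neighbouring gene Tada2a. The peak at 84179616–84180484 was at a CpG-rich start (ratio 0.83).

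Gnas encodes the stimulatory G protein alpha subunit, which couples beta-adrenergic receptors to cAMP, and is an imprinted locus with several promoters (chromosome 2, 174284320–174346744). It had no peak at its first annotated start, then 783 at the start 13.5 kb downstream (174296422–174297904), 299 at 43.4 kb (174327273–174328308) and 101 at 45.7 to 46.0 kb (174330238–174330876). Esrrg, for an oestrogen-related receptor of oxidative tissues, had 92.7 and 111 at starts 389.1 kb apart, both CpG-rich. Srebf1, for the lipogenic factor SREBP-1, had 112 and 76.8 at starts 10.1 kb apart. The scores of Esrrg and Srebf1 lay near or below the median of all peaks.

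Pparg, the master regulator of adipocyte differentiation, is a comparison gene. Its peak of 401 (chromosome 6, 115360437–115361298) lay at a CpG-rich start (ratio 0.95), while the start 61.1 kb downstream, which has a different start codon, had no peak within 1 kb. The nearest peak to it was 5440 bp away and scored 85.9. Ppargc1a, for the coactivator of mitochondrial biogenesis, had its bound start in CpG-poor DNA (403, ratio 0.18). No peak lay within 1 kb of its start 13.8 kb upstream, and the nearest was 13324 bp away.

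Cyclic nucleotide phosphodiesterases and A-kinase anchors, which shape the cAMP signal that drives thermogenesis, had several bound starts in 7 of 22 genes (31.8%, 16.4 to 52.7%). Among those with 3 or more separated starts it was 4 of 13, against 31.2% of all such genes. Scores were low, with a median pair score of 103. With peaks of at least the list's median score, the share was 9.09%, against 9.34% of all genes. Pde1b had 99.5 and 143, and Pde2a had 64.7 and 207, the higher score downstream in both. Pde4d, with 11 separated starts, the most of this list, had 3 separately bound ones, with 346 and 77.3 at the outermost. Akap13 reached 616 and 186, the latter at an unfound 5′ end. Pde1a (161) and Pde4a (377) had a peak at 1 promoter only.

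Cytoskeletal linkers and tropomyosins had several bound starts in 19 of 30 genes (63.3%, 45.5 to 78.1%), and in 17 of the 22 that had 3 or more separated starts. Over all genes with separated starts it was 16.6%, and 395 of 1265 of those with 3 or more. The listed genes had a median of 4 separated starts against 2, so the class of 3 or more does not match them in number of starts. Plec, Dst, Macf1 and Tns1 have been described. Tpm1, for tropomyosin 1, had 326 and 424 at starts 5.70 kb apart, both CpG-rich. Epb41, for a protein of the membrane skeleton, had 634, within 1 kb of a start of Gm10300, and 381. Sptan1, for alpha-II spectrin, had 779 and 141. The median pair score was 179.6 (range 76.0 to 676). Utrn (343) and Ank1 (618) had LSD1 at 1 promoter.

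Small GTPase regulators and signalling scaffolds had several bound in 14 of 30 genes (46.7%, 30.2 to 63.9%), and in 12 of 21 with 3 or more separated starts. Over all genes with separated starts it was 16.6%, and 395 of 1265 of those with 3 or more. The listed genes had a median of 3 separated starts, against 2 over all genes. Arhgap21 had 1987 and 429, Arhgef7, for the exchange factor beta-PIX, had 484 and 232 at 2 CpG-rich starts, and Arhgef10l had 75.8 and 77.3 at its outermost starts. Dlc1, for a GTPase-activating tumour suppressor, had 269 and 677 at starts 339.2 kb apart. Arhgap26 (781) and Mcf2l (198) were comparison genes.

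LSD1 partners and other chromatin regulators had several bound in 12 of 27 genes (44.4%, 27.6 to 62.7%), and in 10 of 19 with 3 or more separated starts. Over all genes with separated starts it was 16.6%, and 395 of 1265 of those with 3 or more. The listed genes had a median of 3 separated starts, against 2 over all genes. Gse1, whose product copurifies with the LSD1-CoREST complex, had the highest pair score of this list, 606. Its 3 separately bound starts scored 261, 606 and 1767 over 307.4 kb. The class IIa deacetylase genes Hdac5 and Hdac7 had 548 and 347, and 608 and 79.2. Zmynd8 had peaks of 309.7, 224 and 132 at starts between its outermost bound ones. The corepressor gene Ncor1 (277, beside a start of Pigl, and 116, at an unfound 5′ end) and the lysine demethylase genes Kdm2a (874 and 285) and Kdm2b (398 and 493) were also among the 12. Kdm1a, which encodes LSD1 itself, had a peak of 87.5 at 1 promoter, and Kdm1b, its paralogue, had 643 at 1 promoter. For each gene the distance was taken at 1 unbound start, the one farthest from the bound start. At Kdm1a the peak nearest to it was 8196 bp away. At Kdm1b it was 18997 bp away and was the bound promoter's own peak.

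**Figure D5:**
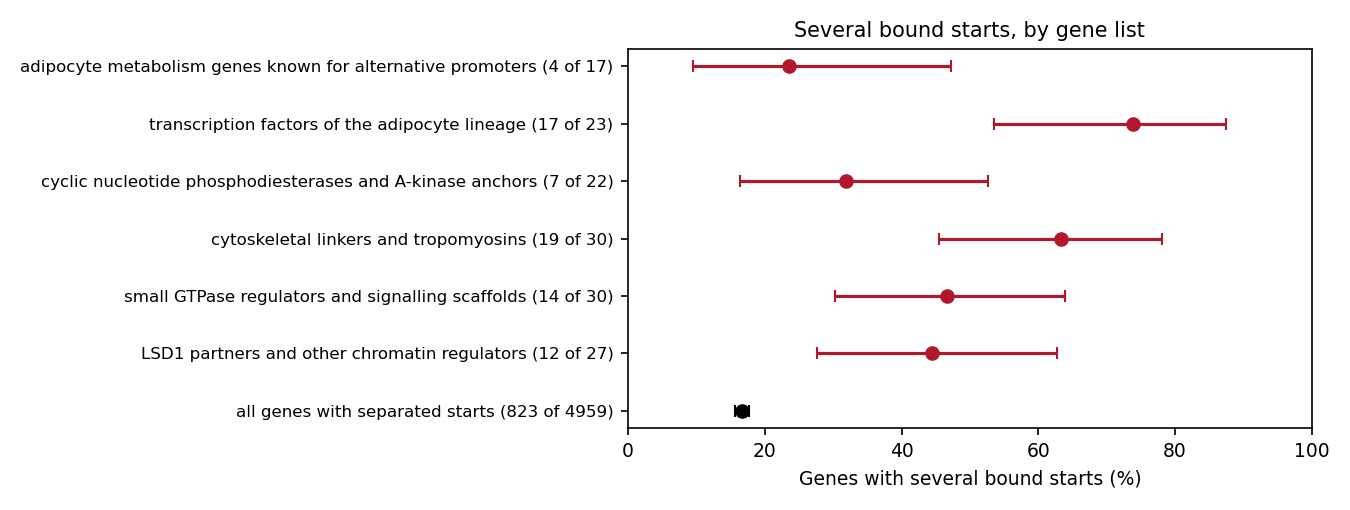
Share of genes with several LSD1-bound starts among the genes with separated starts of each list, in percent, with Wilson 95% intervals. Counts stand beside each name, and the black point gives all 4959 genes with separated starts (16.6%). Transcription factors of the adipocyte lineage (73.9%) and cytoskeletal linkers (63.3%) lie highest and adipocyte metabolism genes (23.5%) nearest to all genes.

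The lists were written with the alternative promoters of many of these genes in mind and with earlier results of these data known. They also differ from all genes in their number of starts, so that their shares describe these genes and test nothing about the groups. The metabolism list also holds transcriptional regulators, Pparg and Ppargc1a with 1 bound promoter and Esrrg and Srebf1 with several. The contrast between it and the lineage list can thus depend on where such genes were placed. With peaks of at least the median score the shares were 47.8% for transcription factors, 46.7% for cytoskeletal linkers, 30% for GTPase regulators, 29.6% for chromatin regulators and 11.8% for metabolism genes, against 9.34% of all genes.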

How the data were processed

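Chromatin immunoprecipitation with an LSD1 antibody, and an input library, were sequenced on an Illumina HiSeq, and per the labels' protocols the reads were aligned to mm10 by Bowtie2. Per the submitters' processing notes, MACS 1.41 was a tool used. How peaks were thresholded and what part the input played are not given in the sources used here. Each peak's score is the authors' deposited value on an unstated scale. Scores are compared only inside this list, and their ratios and correlation describe the deposited values, not amounts of LSD1. The input library was not analysed here.

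Starts were taken from protein-coding transcripts of protein-coding genes in GENCODE M21 on chromosomes 1 to 19, X and Y. An overlap of at least 1 bp with the region within 1 kb of a start counted as bound. No peak reached beyond a chromosome end (0 peaks). Sequence came from RefSeq GRCm38.p6, the assembly of mm10. Coordinates count the first base as 1. The work used Python 3.11.15 with numpy 2.4.6. Classification was tested on simulated data. All 211 list entries matched, 2 through a synonym.

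The 823 genes and the lists were chosen with earlier results of these data known. Named genes are the 8 with the most separately bound starts, the 8 with the highest pair score, the first 3 members and first 2 comparison genes of each list, the 3 widest pairs and the 3 nearest to the distance threshold. Some genes that this rule or a list includes are counted but not reported here by name. Other list members were named after their values were seen. Sequences are the windows of up to 120 bases before a start, for 3 genes each with the largest and smallest difference in CpG ratio among 16 named genes with both windows clear of annotated untranslated regions.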

Additional observations from a re-analysis of the deposited data

How the results depend on the processing

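Of 76 values recomputed under alternatives, 54 stayed within 1.5 times of the count, or within the interval of the share or difference. The other 22 moved beyond it. None of the differences changed sign, and the upstream score stayed the higher in most genes. The phosphodiesterase and anchor list did change sides against all genes. It went from 31.8% against 16.6% to 9.09% against 9.34% with peaks of at least the median score. The number of genes with several bound starts, 823 in the text, was 463 with peaks of at least the median score and 57 with the highest 10% of scores. It was 477 with basic transcripts and 325 with transcripts of support level 1, where fewer starts are annotated. As a share of genes with separated starts (16.6%) the values were 13.6% with regions of 0.5 kb, 21% with 2 kb, 9.34% and 1.15% with the stricter peaks, 14.5% with the peak's midpoint inside the region, 17.7% with basic transcripts, 20.3% with a found 5′ end, 20.5% with support level 1 and 15.1% without starts beside another gene. Leaving out starts at later exons, an alternative chosen after seeing the data, gave 808 genes.

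With upstream and downstream bound starts pooled, the excess of CpG-rich starts over the unbound starts of comparison genes was 45.8 points. It became 49.7 points with peaks of at least the median score and 27.9 points with a ratio above 0.75 and 55% GC. The excess of 22.9 points at downstream starts alone was not recomputed under these 2 settings. Different start codons rose from 57.7 to 62.9% with peaks of at least the median score. With the same peaks the share with several bound starts was 47.8% for lineage transcription factors, 30% for small GTPase regulators and 9.09% for phosphodiesterases and anchors, against 9.34% of all genes. With motif windows of 500 bases on each side the difference between downstream bound and unbound starts was 32.8 points for the GC box and -18.7 points for the TATA box. In these windows the intervals included 0 for the E-box (-0.53 to 5.09) and the cAMP response element (-0.091 to 1.84), unlike in the shorter ones, and excluded it for CCAAT (-9.16 to -1.93). A start of another gene lay within 0.2 kb for 11.8% of genes, against 19.6% within 1 kb. Taking the pair with the highest pair score in place of the outermost pair, also chosen after seeing the data, left the upstream score higher in 67.4% of genes. No pairing of samples was possible because there is 1 LSD1 library. The upstream and downstream starts are paired within genes, and the interval of their difference in CpG-rich share does not use that pairing. With no counts in the list, depth limits which weaker starts could be called bound by an unknown amount.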

Other observations

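Chromosome X was almost without such genes. Of the 823 genes with several bound starts 1 lay on X (0.12%), Arhgap6, for a GTPase-activating protein, with scores of 114 and 101 at starts 241.5 kb apart. Of the comparison genes 34 lay on X (1.29%), and of the genes without a peak at a start 129 did (8.55%). The whole list of 59175 peaks holds 273 on X. Few peaks of any kind lay there, so the scarcity on X is not particular to these genes.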
